A study of Rattus norvegicus with 4 samples.

Results

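Mitochondrial protein import and chaperone genes were followed in rat INS-1 832/13 β-cells after silencing of Tbk1. The set was defined by name: the protein-coding genes whose symbol begins with Timm (14 genes) or Tomm (9 genes), and 12 further genes chosen singly, which are Hspd1, Hspe1, Hspa9, Samm50, Pam16, Grpel1, Grpel2, Dnajc19, Pmpca, Pmpcb, Chchd4 and Gfer. These 35 genes are among the 14087 protein-coding genes, and the 15172 genes in all, of the deposited table. INS-1 832/13 is an insulin-secreting line derived from a rat insulinoma, and every sample came from this 1 line. Cells of both groups were transfected for 36 h, 2 samples with a non-targeting siRNA (siScramble, the control) and 2 with a pool of siRNAs against Tbk1 (siTbk1), the gene of the kinase TBK1. Replicates are numbered 2 and 3 in both groups. RNA sequencing of stranded mRNA libraries gave estimated read counts per gene. Nothing in the labels states that the samples came from separate cultures, so the p-values measure only the spread between these samples.

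Most mitochondrial proteins are encoded in the nucleus, made in the cytosol and imported. The TOM complex of the outer membrane is the common entry gate, from which the TIM23 complex, driven by a motor around the chaperone mtHsp70 (Hspa9), passes preproteins into the matrix. There the processing peptidase (Pmpca and Pmpcb) removes their targeting sequences, and the chaperonin of Hsp60 (Hspd1) and Hsp10 (Hspe1) folds them. Carrier proteins instead travel with small TIM chaperones to the TIM22 complex, barrel proteins reach the SAM complex, and the disulfide relay (Chchd4 and Gfer) oxidises small proteins of the intermembrane space. In β-cells, mitochondrial ATP couples glucose metabolism to insulin release, which makes the supply of mitochondrial proteins part of their secretory function.

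Total counts lay between 38428926 and 47759013 per library, and the count of a member in a library lay between 123 and 31991, so that all 35 members passed the filter on low counts. Levels are given as normalised CPM, counts per 1000000 after TMM scaling. Tbk1 measured 53.7 and 52.5 CPM in the siScramble and 11.8 and 13.3 CPM in the siTbk1 libraries, in the direction the labels give. The β-cell markers Ins1 and Slc2a2 lay between 6244 and 11092 CPM and between 967 and 1310 CPM. The α-cell hormone gene Gcg was also abundant, at 1389 and 1313 CPM in siScramble-treated and 815 and 878 CPM in siTbk1-treated cells, whereas the macrophage marker Cd68 was at or under 0.328 CPM in the controls and 0.340 CPM in the siTbk1 libraries. Of the 6 β-cell markers, Ins1, Ins2, Slc2a2 and Pdx1 were lower after siTbk1 (log2 fold changes from −0.67 to −0.24) and Iapp (0.38) and Nkx6-1 (0.23) were higher, all at an edgeR adjusted p of at most 0.017, and Gcg was lower (−0.68). The part of these markers in the results on import genes was not tested. In bulk RNA, fewer cells of a type and less RNA per cell cannot be told apart.

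The sequence upstream of the chaperonin genes is shown first, because the pair is transcribed from opposite sides of 1 short region while their mRNAs were found to move by different amounts. In RefSeq (build GRCr8) the starts of Hspd1 and Hspe1 lie 289 bases apart, and the 250 bases before each start, the window searched here, share 211 bases. The window of Hspe1, on the plus strand at chr9:64084077-64084326, is printed 5′ to 3′ with matches to the heat shock element (GAANNTTC or TTCNNGAA, both palindromic) and to the ETS core CCGGAAG (both strands) in capitals.
Hspe1: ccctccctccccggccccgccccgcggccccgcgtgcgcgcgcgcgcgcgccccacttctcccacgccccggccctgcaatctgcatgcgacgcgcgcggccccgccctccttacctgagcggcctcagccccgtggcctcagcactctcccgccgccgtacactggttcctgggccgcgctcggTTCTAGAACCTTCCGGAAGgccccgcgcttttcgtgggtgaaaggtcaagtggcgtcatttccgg
In this sequence the heat shock matches begin at −65, −60 and −55 from the Hspe1 start. The middle one overlaps both of the others, and it and the last overlap the ETS matches, which begin at −56 and −53. The same letters lie between −243 and −225 from the Hspd1 start. RefSeq windows were found for 33 of the 35 members (Timm29 and Tomm34 had none). Both arrangements of the heat shock element occurred in 2 of the 33 windows, those of Hspd1 and Hspe1, against 0.774% of 9690 windows of tested genes and 1.07% of 27457 windows in all. These 2 windows share the same letters, so they hold 1 site and are not separate matches. TTCNNGAA alone lay in 5 windows (Hspd1, Hspe1, Timm10, Timmdc1 and Tomm22, 15.2% against 5.8% of tested genes). GAANNTTC alone lay in 3 (Hspa9, Hspd1 and Hspe1, 9.09% against 4.58%). In both of these counts the matches of Hspd1 and Hspe1 are again the same letters.

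Windows of the other genes on which the results turn are those of Tomm20, which rose, and of Timm13 and Tomm6, which fell furthest. They are printed in the same way, at chr19:71832421-71832670 on the minus strand, chr7:9459496-9459745 on the plus strand and chr9:20801556-20801805 on the plus strand, with the matches to the NRF1 motif (both strands) and to the ETS core in capitals.
Tomm20: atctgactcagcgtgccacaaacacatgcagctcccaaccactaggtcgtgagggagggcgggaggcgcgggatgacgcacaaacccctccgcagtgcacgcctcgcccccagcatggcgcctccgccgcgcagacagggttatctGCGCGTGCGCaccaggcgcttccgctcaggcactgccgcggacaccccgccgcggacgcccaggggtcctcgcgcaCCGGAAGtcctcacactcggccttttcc
Timm13: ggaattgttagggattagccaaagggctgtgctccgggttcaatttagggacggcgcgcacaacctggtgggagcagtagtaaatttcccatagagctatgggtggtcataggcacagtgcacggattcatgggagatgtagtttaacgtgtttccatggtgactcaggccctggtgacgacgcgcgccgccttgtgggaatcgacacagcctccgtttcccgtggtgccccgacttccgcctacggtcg
Tomm6: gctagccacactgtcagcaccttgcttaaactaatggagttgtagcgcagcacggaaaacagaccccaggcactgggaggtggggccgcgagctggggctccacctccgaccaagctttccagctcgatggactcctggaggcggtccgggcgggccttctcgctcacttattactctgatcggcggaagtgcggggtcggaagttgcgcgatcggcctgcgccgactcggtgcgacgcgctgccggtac
The Tomm20 window held 1 NRF1 match, which begins at −104, and 1 ETS match, which begins at −28. The windows of Timm13 and Tomm6 held none of the 7 motifs searched, which besides those above were AAGATGG (YY1), CCAAT and TGATGNAA (C/EBP-ATF response element), on both strands. Over the members, an ETS match lay in 13 windows (39.4%, against 15.2% of windows of tested genes and 7.74% of all windows). The ETS matches of Hspd1 and Hspe1 are the same letters, counted for both. An NRF1 match lay in 7 windows (21.2%, against 9.22% and 4.17%). C/EBP-ATF matches lay in 3 (Hspa9, Timm22 and Tomm40l, 9.09% against 1.59% of tested genes), CCAAT in 12 (36.4% against 35.5%) and YY1 in 2 (6.06% against 4.36%). Of the 5 members that rose, Hspd1, Tomm20, Grpel1 and Pmpcb had an ETS match. Of the 12 that fell, Pmpca, Timm10 and Timm8b had one. Of the 16 members with a window that passed in neither direction, Grpel2, Hspe1, Timm10b, Timmdc1, Tomm22 and Tomm70 had one. A link between matches and direction was not tested. Such matches are letters in a window and show no binding.

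Of the 35 members, 12 were lower and 5 were higher in siTbk1-treated cells at an adjusted p-value under 0.05 (the quasi-likelihood test of edgeR, adjusted by Benjamini-Hochberg over all 13953 tested genes and called the edgeR adjusted p here), and 18 did not pass. This is 34.3% lower and 14.3% higher, against 24.8% lower and 24.4% higher among all tested genes. Of the 35 log2 fold changes, 21 were below 0 and 14 above, and their median was −0.13, against 0.0071 for all tested genes. The changes were small. With a fold change of at least 1.5 required as well, 2 members were called lower (5.71%, against 6.18% of all tested genes) and 0 were called higher (against 4.81%), since no member reached 1.5-fold upward, and the log2 fold changes of the set ran from −0.72 (Timm13) to 0.49 (Hspd1). The members that were higher were Hspd1, Hspa9, Grpel1 and Pmpcb of the matrix and Tomm20 of the outer membrane, while those that were lower came from 7 of the 10 role groups used here. When a trend along genomic span was removed from each library, 11 members were higher and 8 were lower (against 23.6% and 23.9% of all tested genes). With the replicate number as a block as well, 6 were higher and 7 were lower (against 21.4% and 22.3%). The balance of directions thus depends on these steps. Both siTbk1 libraries lay below both controls for 20 members and above both for 10, against 37.9% and 38.7% of all tested genes, and the groups overlapped for 5. Without siTbk1 replicate 3, 0 members were called lower with the limit of 1.5-fold (against 4.43% of tested genes), and without siScramble replicate 3 only Timm13 was (against 4.03%). Without siScramble replicate 2 or siTbk1 replicate 2, 3 members were (against 7.83% and 8.22%).

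**Figure D1:**
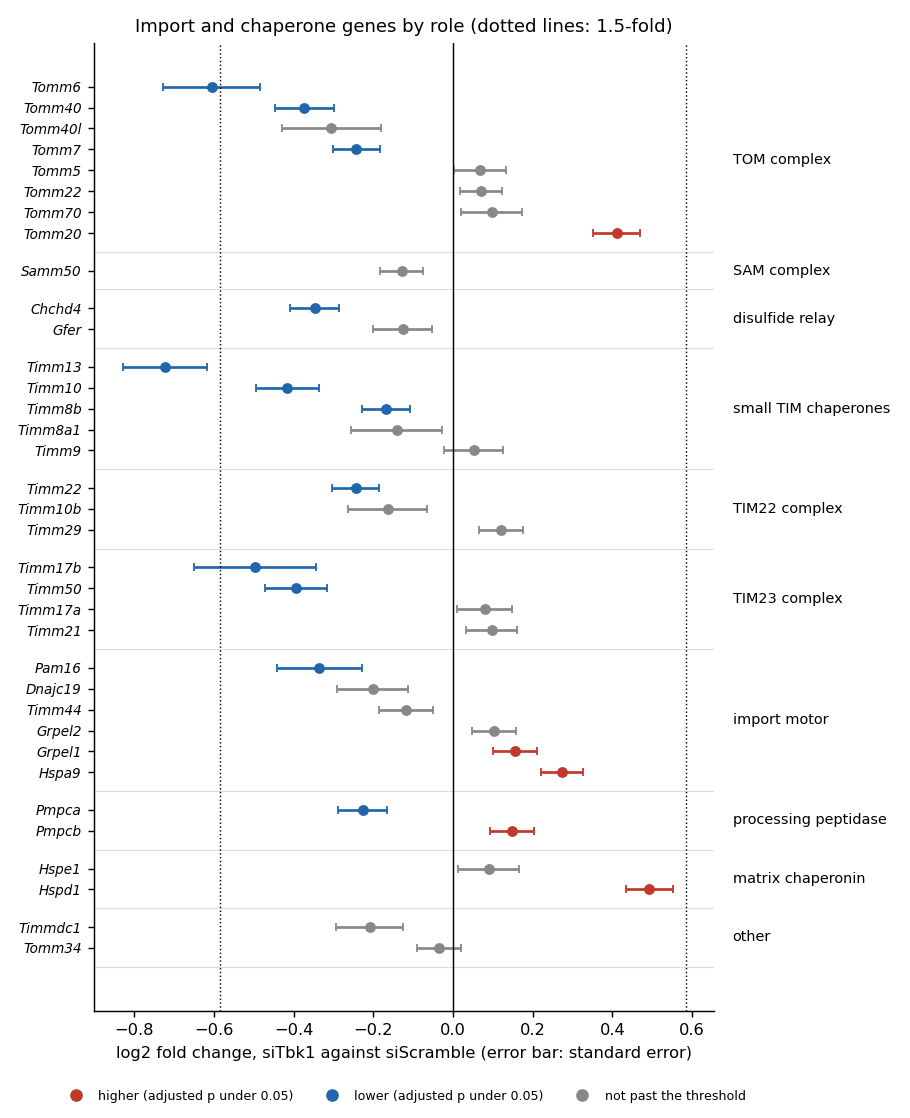
Log2 fold change of each of the 35 genes (x axis; siTbk1 against siScramble, 2 libraries per group, error bars are standard errors), grouped by role on the y axis; dotted lines mark a fold change of 1.5. Red genes were higher, blue genes lower and grey genes not past the threshold; Timm13 and Tomm6 lie beyond the left dotted line and no gene lies beyond the right one.

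The matrix chaperones held the largest increase. Hspd1, which encodes the Hsp60 chaperonin and is listed in the deposited table on chromosome 9 from 61680530 to 61690957 (rn6, minus strand), measured 503 and 467 CPM in siScramble replicates 2 and 3 and 655 and 710 CPM in siTbk1 replicates 2 and 3. Both siTbk1 libraries lay above both controls, and the difference between the groups was larger than the spread within either. The log2 fold change was 0.49 (standard error 0.059, edgeR adjusted p = 4.9e-05). Hspe1, its Hsp10 partner, listed on the same chromosome from 61692154 to 61694600 on the plus strand, measured 43.3 and 45.7 CPM in the controls and 43.9 and 50.9 CPM after siTbk1. Here the groups overlapped, and the log2 fold change of 0.089 (standard error 0.076) did not pass (edgeR adjusted p = 0.35). After the genomic span correction Hspe1 stood at 0.19 and passed (edgeR adjusted p = 0.046). With that correction and the replicate block together it did not pass (0.19, edgeR adjusted p = 0.064). The ratio of Hspd1 to Hspe1 within a library, which needs no scaling between libraries, was 11.6 and 10.2 in the controls and 14.9 and 14.0 in the siTbk1 libraries, without overlap. With 2 libraries against 2, an exact permutation test of such a ratio cannot go below p = 0.33, so the ratios are given as values, and the partner pairs were chosen with the values known. RefSeq lists 20 pseudogenes named after Hspd1 and 1 named after Hspe1, which could share reads with them. The counts of Hspd1 were whole numbers in every library, and that of Hspe1 had a fraction in 1 of the 4 libraries.

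Hspa9 is the mtHsp70 that powers the import motor and also folds proteins in the matrix. It measured 591 and 562 CPM in the controls and 680 and 714 CPM in the siTbk1 libraries, with no overlap. Its log2 fold change was 0.27 (standard error 0.054, edgeR adjusted p = 0.0012). RefSeq lists 2 pseudogenes named after Hspa9, and its counts had fractions. Hspd1 and Hspa9 together held 39.5% and 38.0% of the summed CPM of the 35 members in the controls and 45.0% and 46.6% in the siTbk1 libraries. The summed CPM rose from 2772 and 2707 to 2969 and 3059, while without these 2 genes it was 1677 and 1678 in the controls and 1634 and 1634 after siTbk1. The sum over the set was thus higher through 2 genes, while the median log2 fold change of the members was below 0.

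**Figure D2:**
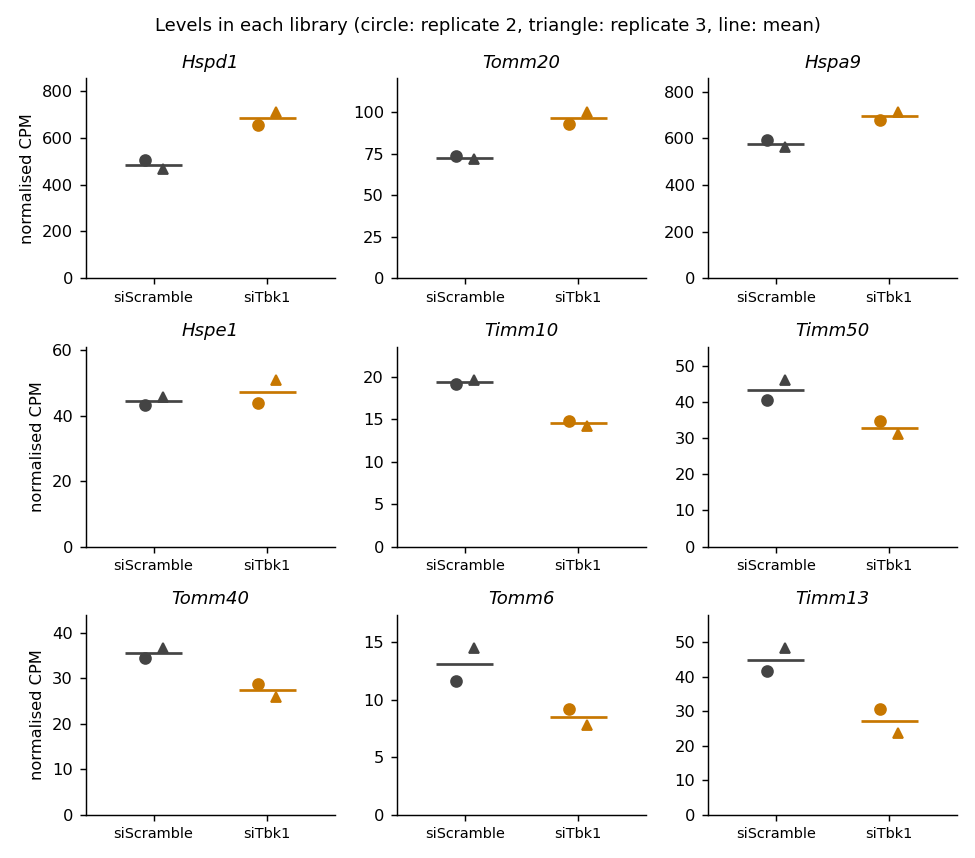
Normalised CPM (y axis, from 0) of 9 members in each library; grey symbols are siScramble and orange symbols siTbk1, circles are replicate 2, triangles replicate 3 and lines the group means. The siTbk1 symbols lie above both controls for Hspd1, Tomm20 and Hspa9, overlap them for Hspe1 and lie below them for the other 5 genes.

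The other genes of the import motor moved in both directions. Grpel1, the nucleotide exchange factor of mtHsp70, measured 108 and 102 CPM in the controls and 115 and 119 CPM after siTbk1 (log2 fold change 0.16, standard error 0.056, edgeR adjusted p = 0.035). Its paralog Grpel2 had a log2 fold change of 0.10 and did not pass (edgeR adjusted p = 0.15), and the ratio of Grpel1 to Grpel2 was 1.31 and 1.28 in the controls and 1.33 and 1.35 in the siTbk1 libraries. After the genomic span correction Grpel2 passed (0.16, edgeR adjusted p = 0.041). The call for Grpel1 was lost in DESeq2, with library size alone, with the replicate number as a block and without siScramble replicate 3 or either siTbk1 library. Pam16, a J-like protein that regulates the motor, fell from 8.45 and 9.31 CPM to 7.10 and 6.94 CPM (log2 fold change −0.34, standard error 0.11, edgeR adjusted p = 0.020). The call for Pam16, measured from few counts, was lost in DESeq2, after the genomic span correction and without replicate 3 of either group. Its J-protein partner Dnajc19 had a log2 fold change of −0.20 and Timm44, which tethers mtHsp70 to the channel, one of −0.12, and neither passed, although both siTbk1 libraries lay below both controls for each.

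The 2 subunits of the processing peptidase went opposite ways. Pmpca, the α subunit, measured 79.2 and 80.7 CPM in the controls and 71.1 and 65.4 CPM after siTbk1 (log2 fold change −0.23, standard error 0.061, edgeR adjusted p = 0.0083). Pmpcb, the catalytic β subunit, measured 80.01 and 80.8 CPM and then 88.2 and 89.9 CPM (log2 fold change 0.15, standard error 0.055, edgeR adjusted p = 0.042). The ratio of Pmpcb to Pmpca was 1.01 and 1.00 in the controls and 1.24 and 1.37 in the siTbk1 libraries. Both calls depended on the fit: that of Pmpca was lost after the genomic span correction and without siTbk1 replicate 3, and that of Pmpcb in DESeq2, with library size alone, with no filter, with the replicate block and without any 1 of the 4 libraries. Pmpca overlaps Entr1 on the other strand, and whether the counting used strand is not given in the sources used here.

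Among the 8 TOM genes, the receptor gene Tomm20 rose, the pore gene Tomm40 and the small subunit genes Tomm6 and Tomm7 fell, and the other 4 did not pass. Tomm20, the receptor for preproteins with cleavable targeting sequences, measured 73.8 and 71.8 CPM in the controls and 93.3 and 100.4 CPM in the siTbk1 libraries, which did not overlap. Its log2 fold change was 0.41 (standard error 0.059, edgeR adjusted p = 0.00016), the second largest increase of the set. The receptors Tomm22 (159 and 151 CPM in the controls, 162 and 164 CPM after siTbk1) and Tomm70 (42.8 and 41.6 CPM, then 41.6 and 48.9 CPM) did not pass, at log2 fold changes of 0.069 and 0.097. After the genomic span correction Tomm22 passed (0.17, edgeR adjusted p = 0.036) and Tomm70 did not (0.071). The ratio of Tomm20 to Tomm22 was 0.463 and 0.475 in the controls and 0.575 and 0.614 in the siTbk1 libraries. Tomm40, the pore itself, fell from 34.4 and 36.6 CPM to 28.8 and 25.9 CPM (log2 fold change −0.37, standard error 0.074, edgeR adjusted p = 0.0013). Its paralog Tomm40l measured 5.41 and 5.35 CPM in the controls and 4.32 and 4.40 CPM after siTbk1 and did not pass (log2 fold change −0.31, edgeR adjusted p = 0.058). The ratio of the paralogs, between 5.88 and 6.84 in the 4 libraries, overlapped between the groups.

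Among the small TOM subunits, which stabilise the complex, Tomm6 fell, Tomm7 fell less and Tomm5 did not pass. Tomm6, listed on chromosome 9 from 15313523 to 15314436 (rn6), measured 11.7 and 14.5 CPM in the controls and 9.23 and 7.82 CPM in the siTbk1 libraries, all siTbk1 values lying below the controls. Its log2 fold change of −0.61 (standard error 0.12, edgeR adjusted p = 0.0014) was just past the limit of 1.5-fold. Tomm7 measured 74.6 and 74.6 CPM and then 64.6 and 61.4 CPM (log2 fold change −0.24, standard error 0.058, edgeR adjusted p = 0.0043). Tomm5 overlapped between groups (43.7 and 47.9 CPM in the controls, 47.5 and 48.5 CPM after siTbk1, log2 fold change 0.068). After the genomic span correction, Tomm6 stood at −0.50, past the adjusted p but under 1.5-fold, and the call of Tomm7 was lost. Tomm5 then passed as higher (0.17, edgeR adjusted p = 0.039).

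The small TIM chaperones, which escort hydrophobic carriers across the intermembrane space as hexamers of paired subunits, showed the largest decrease of the set. Timm13, listed on chromosome 7 from 11677340 to 11678443 (rn6), measured 41.7 and 48.3 CPM in the controls and 30.5 and 23.6 CPM in the siTbk1 libraries. The groups did not overlap, although siTbk1 replicate 3 lay well under replicate 2. Its log2 fold change was −0.72 (standard error 0.11, edgeR adjusted p = 0.00017), 0.605 of the control level. Without siTbk1 replicate 3, the log2 fold change was −0.56, which is under 1.5-fold, and without siTbk1 replicate 2 it was −0.94. Timm10 fell from 19.1 and 19.6 CPM to 14.8 and 14.2 CPM (log2 fold change −0.42, standard error 0.079, edgeR adjusted p = 0.00098). Its hexamer partner Timm9 measured 18.7 and 18.5 CPM and then 19.4 and 19.1 CPM and did not pass (log2 fold change 0.052).

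Among the partners of Timm13, Timm8b fell slightly (54.2 and 53.9 CPM, then 46.6 and 49.7 CPM, log2 fold change −0.17, standard error 0.061, edgeR adjusted p = 0.038), and Timm8a1 did not pass (7.33 and 7.27 CPM, then 6.21 and 7.07 CPM, log2 fold change −0.14). The call for Timm8b was lost in DESeq2, with the replicate block, after the genomic span correction and without either siScramble library or siTbk1 replicate 2, and the gene overlaps Nkapd1 on the other strand. The ratio of Timm10 to Timm9 was 1.02 and 1.06 in the controls and 0.763 and 0.743 in the siTbk1 libraries. The ratio of Timm13 to Timm8b was 0.769 and 0.896 in the controls and 0.655 and 0.476 after siTbk1. In both hexamer pairs the ratio was lower in both siTbk1 libraries than in both controls, with Timm9 not past the test and Timm8b falling less than Timm13. The ratio of Timm8b to Timm8a1 overlapped between the groups (7.40 and 7.41 in the controls, 7.51 and 7.02 after siTbk1).

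**Figure D3:**
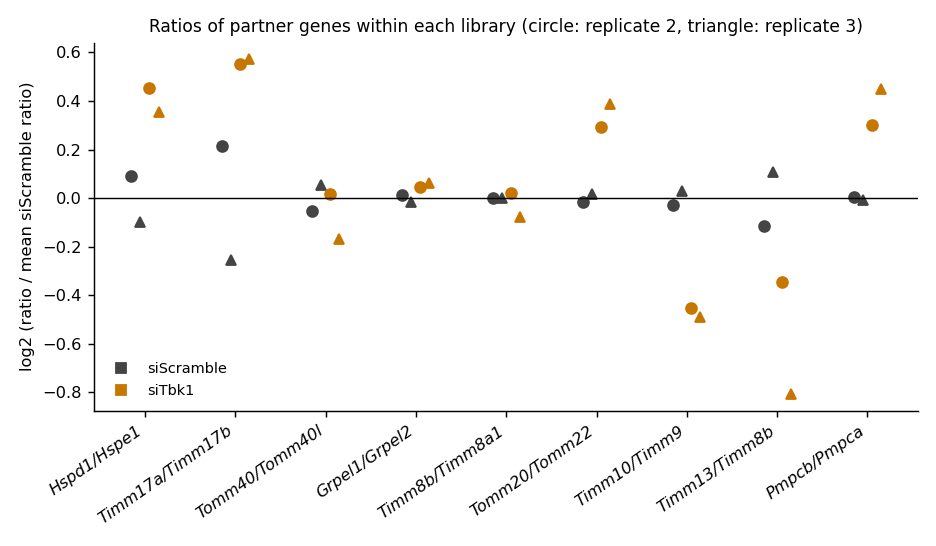
Ratio of the CPM of 2 partner or paralog genes within each library, as log2 of the ratio over the mean siScramble ratio (y axis), for 9 pairs (x axis); grey symbols are siScramble and orange symbols siTbk1, circles are replicate 2 and triangles replicate 3. The groups are apart for Hspd1/Hspe1, Timm17a/Timm17b, Grpel1/Grpel2, Tomm20/Tomm22, Timm10/Timm9, Timm13/Timm8b and Pmpcb/Pmpca, and overlap for Tomm40/Tomm40l and Timm8b/Timm8a1. The pairs were chosen with the values known, and the share of other gene pairs whose ratios are apart was not computed. For single tested genes, both siTbk1 libraries lay above both controls in 38.7% and below both in 37.9%.

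In the TIM23 complex, Timm50, the receptor that takes over preproteins from TOM, fell from 40.6 and 46.1 CPM to 34.7 and 31.2 CPM (log2 fold change −0.39, standard error 0.078, edgeR adjusted p = 0.0013). Of the paralogous channel subunits, Timm17a measured 89.7 and 81.6 CPM in the controls and 95.5 and 85.6 CPM after siTbk1, with overlap (log2 fold change 0.080). Timm17b, the rarer of the pair by count, fell from 4.37 and 5.50 CPM to 3.68 and 3.26 CPM (log2 fold change −0.50, standard error 0.15, edgeR adjusted p = 0.018). The ratio of Timm17a to Timm17b was 20.5 and 14.8 in the controls and 26.0 and 26.3 in the siTbk1 libraries. Timm17b was measured from at most 218 counts per library, overlaps another listed gene on the same strand and had fractional counts, and its call was lost in DESeq2 and without siScramble replicate 3 or siTbk1 replicate 3. Timm21, a small subunit, had a log2 fold change of 0.097 and did not pass, but it passed after the genomic span correction (0.20, edgeR adjusted p = 0.030). Timm23, the central channel subunit, was not analysed here.

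In the carrier pathway of the inner membrane, Timm22, the channel, fell from 55.0 and 55.8 CPM to 47.6 and 46.0 CPM (log2 fold change −0.24, standard error 0.059, edgeR adjusted p = 0.0048). This call was lost with the genomic span correction and the replicate block together (−0.15, edgeR adjusted p = 0.14). Its partners Timm10b (log2 fold change −0.16) and Timm29 (0.12) did not pass, with control levels of 20.7 ± 1.94 and 70.1 ± 0.526 CPM (SD, n = 2 each). After the genomic span correction Timm29 passed (0.22, edgeR adjusted p = 0.0068). Of the disulfide relay, Chchd4, the import receptor that oxidises small TIM proteins, fell from 50.3 and 48.8 CPM to 38.3 and 39.6 CPM (log2 fold change −0.35, standard error 0.061, edgeR adjusted p = 0.00061), with siTbk1 libraries well below both controls. Gfer, the oxidase that recycles it, measured 26.7 and 29.6 CPM and then 25.4 and 26.1 CPM and did not pass (log2 fold change −0.13). Samm50, the core of the SAM complex, had a log2 fold change of −0.13 (edgeR adjusted p = 0.066). Timmdc1, an assembly factor of respiratory complex I that shares the Timm name, and Tomm34, a cytosolic co-chaperone, had log2 fold changes of −0.21 and −0.035, and neither passed.

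Members with higher counts tended to have the more positive log2 fold changes. Across the 35 members, the Spearman correlation of the log2 fold change with the mean CPM was 0.69 (Pearson 0.67 with log2 CPM), whereas across all 13953 tested genes it was 0.048 (Pearson 0.027). The correlation with genomic span, the distance from start to stop listed for a gene, was 0.27 (Spearman, members) against 0.21 for all tested genes. All points come from the same 4 libraries, and CPM is not divided by transcript length, so these are descriptions. The members are short in the genome, with a median span of 7.76 kb against 20.1 kb for all tested genes. Of the 17 members under the members' median span, 1 was higher and 7 were lower, and of the 18 at or over it, 4 were higher and 5 were lower. Among all tested genes 24.4% were higher and 24.8% lower, and the shares among tested genes of like span were not computed.

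**Figure D4:**
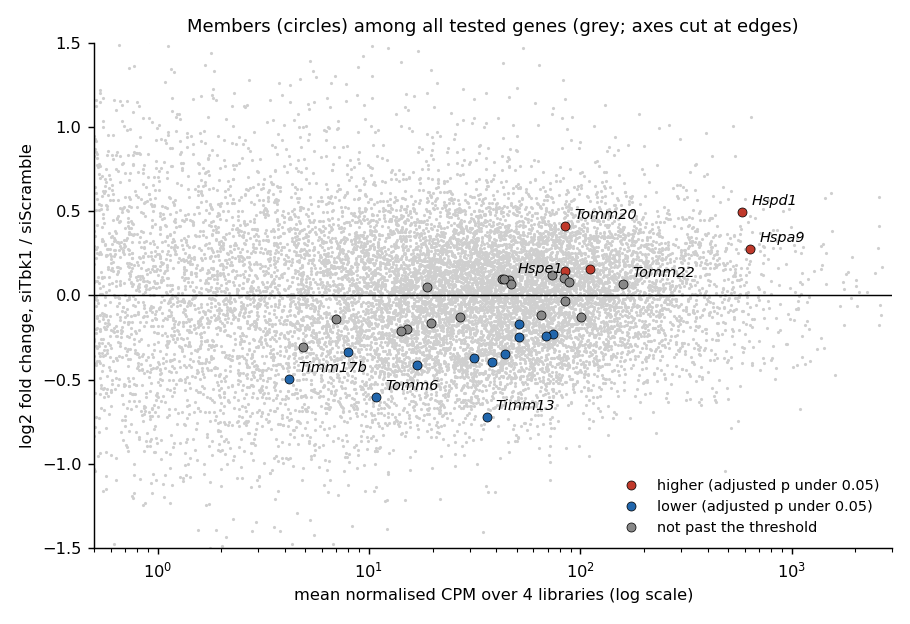
Log2 fold change (y axis) against the mean normalised CPM over the 4 libraries (x axis, log scale) for the 35 members (circles, coloured by direction) and all other tested genes (grey points; those outside the axes are not drawn). Hspd1 and Hspa9 lie at the upper right.

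The siTbk1 libraries did not lie equally far from the controls. For 10 of the 12 members that fell and all 5 that rose, siTbk1 replicate 3 lay farther from the control mean than replicate 2. The same held for 80.7% of all tested genes that were lower and 73.1% of those that were higher, so the members followed the libraries as a whole in this respect. Tbk1 itself was at 11.8 CPM in siTbk1 replicate 2 and 13.3 CPM in siTbk1 replicate 3, so it was not lower in replicate 3. Replicate 3 was also sequenced less deeply in both groups. The parts of silencing and of depth in the unequal distances were not tested. Of the 17 members past the threshold, 9 passed the adjusted p in the same direction under the 10 alternative fits that test against no change and with any 1 library left out, which were Hspd1, Tomm20, Hspa9, Timm13, Tomm6, Timm10, Timm50, Tomm40 and Chchd4. In a test against 1.5-fold itself (glmTreat), 0 members passed in either direction, against 1.17% of tested genes higher and 0.724% lower.

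In 5 lists of genes that act beside the import machinery, counts are to be read against the 24.8% lower and 24.4% higher among all tested genes. Among 11 partners of the SAM complex and of the MICOS complex that shapes cristae, 4 were lower (36.4%) and 3 higher (27.3%). The larger changes were in Chchd6 (log2 fold change −0.52) and Micos13 (−0.41), and in Apool (0.53) and Chchd3 (0.32). Of 12 mitochondrial proteases and peptidases, 3 were lower and 3 higher, each a share close to that of all tested genes. Clpp, the proteolytic subunit of the matrix protease ClpXP, fell from 19.8 to 11.7 CPM (group means, log2 fold change −0.75), while its chaperone subunit Clpx rose from 25.7 to 33.5 CPM (0.38). Mipep, which trims a second targeting peptide, rose by 0.50 on the log2 scale, and Spg7 stood at −0.27.

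Among 10 further chaperones and insertases of the matrix and inner membrane, 5 were lower (50.0%) and the other 5 did not pass. The insertase gene Oxa1l (−0.61 on the log2 scale) and the prohibitin gene Phb (−0.58) fell most, and Phb2 (−0.30), Trap1 (−0.19) and Cox18 (−0.45), named here after their values were seen, also passed. Of 14 cytosolic chaperones and co-chaperones, 2 were lower and 2 higher (14.3% each), among them Bag3 (−0.47), which fell, and Hsph1 (0.34) and Hspa4 (0.18), which rose. Of 11 transcription factor genes linked to heat shock, mitochondrial stress or mitochondrial biogenesis, 5 were higher (45.5%) and 3 lower (27.3%). Ppargc1a, a coactivator of mitochondrial biogenesis, rose from 5.83 to 9.97 CPM (log2 fold change 0.77), Gabpa, which binds ETS sites, stood at 0.33, and Esrra (−0.62) and Hsf1 (−0.44), a heat shock factor gene, fell. Hsf2, the other heat shock factor gene of the list, was higher by 0.16 on the log2 scale, at the edge of the threshold (edgeR adjusted p = 0.0499), and is named here after its value was seen. The remaining genes of this list are also named after their values were seen. Yy1 (0.29) and Ddit3 (0.20) were higher and Atf5 (−0.29) was lower. Nrf1 (−0.097), Atf4 (−0.11) and Ppargc1b (−0.38) did not pass. The part of any of these factors in the results on import genes was not tested. Apart from Hsf2, the genes named for these lists as higher or lower had an edgeR adjusted p of at most 0.041, that of Ddit3. Of the genes named here, Clpp, Oxa1l and Esrra were called lower and Ppargc1a higher with the limit of 1.5-fold.

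**Figure D5:**
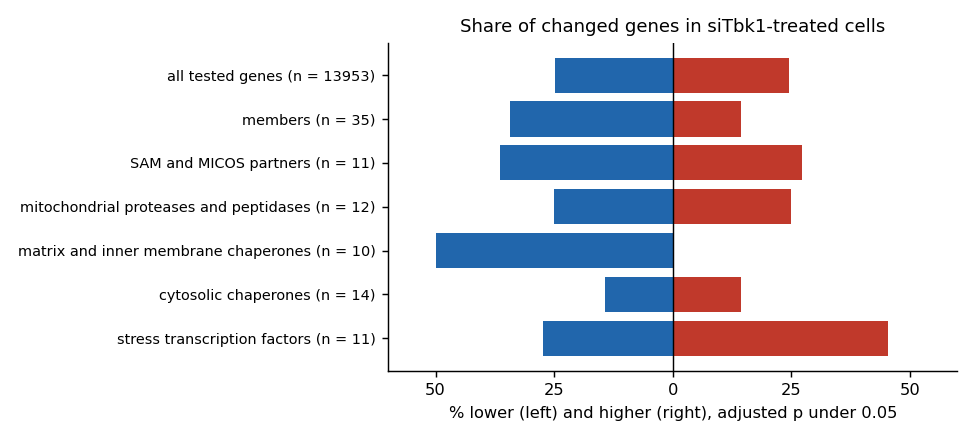
Share of genes (x axis, percent) lower (blue, to the left of 0) and higher (red, to the right) in siTbk1-treated cells at an adjusted p-value under 0.05, for all tested genes, the members and 5 lists of related genes (y axis, n tested in brackets). The 35 members had 34.3% lower and 14.3% higher, and the matrix and inner membrane chaperones had 50.0% lower.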

How the data were processed

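RNA of 4 samples of INS-1 832/13 cells (siScramble and siTbk1, 2 each, 36 h) was sequenced. Libraries were stranded mRNA libraries per the labels. The authors deposited estimated counts per gene. The submitters' processing notes name STAR 2.6.1d, Partek and the rat build rn6, but which step each tool served is not given in the sources used here. The deposited expected counts are not whole for 25.8% of genes (tolerance 0.01), as when a read is divided between genes, and were rounded here. Whether the counting used strand is not given in the sources used here. Genes with low counts were removed by edgeR's filterByExpr (minimum count 10), which left 13953 of 15172. Libraries were scaled by TMM and tested with edgeR 4.0.16 (glmQLFit and glmQLFTest, R 4.3.3) between the groups, without a block, with Benjamini-Hochberg adjustment over all tested genes. A gene was called changed at an adjusted p-value under 0.05, with a limit of 1.5-fold where stated. A count of 3 corresponds to 0.0628 to 0.0781 CPM, which covers counting error only.

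Alternatives were DESeq2 1.42.0, limma-voom (limma 3.58.1), other scalings and filters, a replicate block, a genomic span correction (a loess trend of each library along log span, span 0.5), a glmTreat test against 1.5-fold, and each library left out. The main fit, the replicate block, limma-voom and DESeq2 were tried on simulated counts, and the other alternatives were not. The members and lists were chosen with earlier results of these data known. The genes named singly were Hspd1, Hspe1, Hspa9, members past 1.5-fold, the 6 largest changes in each direction and paralog pairs, and in the other lists the genes past 1.5-fold and the 2 largest changes in each direction. The remaining members are named to account for every member. The values of 1 gene of the other lists that this rule would name are not reported here. Rows named by an Rfam identifier, which merge copies across a chromosome, were left out when overlapping genes were counted. By that count, 3 members overlap a listed gene on the same strand and 5 on the other strand. RefSeq lists pseudogenes named after 11 members, among them Hspd1, Hspa9, Tomm20, Tomm7 and Chchd4. Fractional counts were found for 12 members, among them Hspa9, Tomm7 and Chchd4. Upstream windows are from RefSeq (GRCr8), and no rn6 coordinate was converted to that build. The lists' Romo1, Immp2l and Yme1l1 and the markers Sst, Ppy, Col1a1, Col1a2, Col3a1 and Ptprc were not analysed here.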

Additional observations from a re-analysis of the deposited data

How the results depend on the processing

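The number of members that were higher, 5 in the report, was 3 under the replicate block, DESeq2 and library size alone, 11 with the genomic span correction, and 3 to 4 with 1 library left out. Among all tested genes, 24.4% were higher in the report and 23.6% with the span correction. The share was smaller under the replicate block (22.2%), DESeq2 (19.5%) and library size alone (20.2%), so fewer genes in all were higher there. The number of members that were lower was 12 in the report (against 24.8% of all tested genes). It was 16 with library size alone (against 28.6%) and 7 with the span correction and the replicate block together (against 22.3%). With the limit of 1.5-fold, 2 were lower in the report, 1 with the span correction (against 5.43% of tested genes), 1 with the span correction and the replicate block (5.59%), 0 with glmTreat (0.724%) and 0 to 3 with 1 library left out. The median log2 fold change of −0.13 was −0.18 with library size alone, −0.060 with the span correction, −0.062 with the span correction and the block, and −0.15 to −0.12 with 1 library left out. The cause of these shifts was not tested. Of 490 member values under these alternatives, 35 lost the threshold, 18 gained it and 0 past it changed sign. The deviations of same-numbered samples correlated at 0.0041 (Pearson) and −0.20 (Spearman) over 13953 genes, so no positive effect shared by same-numbered samples was seen. These correlations cannot show whether the samples were paired, which is not given in the sources used here. With the replicate block, 3 members were higher and 11 lower (against 22.2% and 23.2% of all tested genes). With the pairing crossed, chosen after seeing the data, 6 were higher and 14 lower (against 27.3% of all tested genes in each direction). With 2 libraries per group, and 1 when a library is left out, the lone library is assumed to vary like the others, and small changes such as that of Pmpcb lie at the limit of what this depth and number of libraries resolve.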
